A study of Homo sapiens with 14 samples.

Results

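The epidermal differentiation complex is a gene-dense stretch of human chromosome 1 that runs from the S100A10 end, through the genes of the cornified envelope, to the S100A cluster. The members described here are the 47 regions of the deposited table, of 65774 in all, that start between 151.98 and 153.65 Mb on chromosome 1 (hg38), a choice made by position alone. The assay was ATAC-seq, which reads open DNA by letting a transposase insert adapters into it, so that a region's count rises with how open it is. The cells were SUM149PT, a human inflammatory breast cancer line without estrogen and progesterone receptors, and 6 clones derived from it, named E, EM1, EM2, EM3, M1 and M2. Parental, the line of origin, was the common reference. Each of these 7 groups had 2 libraries, none of the cells was treated, and each clone name stands for 1 clone. The labels do not spell out the letters, and they leave unsaid whether a group's libraries were separate cultures, so the p-values reflect only how far these libraries spread, which may be technical.

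The cornified envelope is the protein shell that forms beneath the membrane of a keratinocyte as it dies in the outer skin. Involucrin, loricrin and the small proline-rich (SPRR) and late cornified envelope (LCE) proteins are cross-linked into it by transglutaminases, and the fused-type S100 proteins, among them filaggrin and repetin, bind keratin or sit in the same layer. The S100 proteins are small calcium-binding proteins that regulate other proteins inside cells, and several of them are also secreted, with S100A8 and S100A9 known as calprotectin, an alarm signal of inflamed epithelium and of neutrophils.

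Of the 47 regions 12 held an annotated gene start, and 4 of these starts are printed because the results turn on them. The start of S100A9 lost accessibility in M2, that of its partner S100A8 was called in no clone, and that of S100A3 gained in M1 and M2. With the median of the regions flanking the locus removed from every library, S100A8 was also called lower in M2 (-1.36 on the log2 scale). The S100A3 gain was then called in M1 (1.37) but not in M2 (0.33), and the S100A9 loss in M2 was still called (-2.62). The start of S100A11 is the gene start nearest to the region with the widest differences, though 12744 bp from its middle. The windows, from 250 bases before to 50 after the start, come from the RefSeq promoter table of GRCh38.p14 and are written 5′ to 3′ on the gene's strand. They lie at chr1:153391024-153391323 (S100A8, minus strand), chr1:153357604-153357903 (S100A9, plus strand), chr1:153549209-153549508 (S100A3, minus strand) and chr1:152036955-152037254 (S100A11, minus strand). Region 25 covers 300 of the 300 bases at S100A9, region 37 covers 300 at S100A3, region 28 covers 257 at S100A8 and region 10 covers 252 at S100A11. Capitals mark matches, on either strand, to the letters searched.
S100A8: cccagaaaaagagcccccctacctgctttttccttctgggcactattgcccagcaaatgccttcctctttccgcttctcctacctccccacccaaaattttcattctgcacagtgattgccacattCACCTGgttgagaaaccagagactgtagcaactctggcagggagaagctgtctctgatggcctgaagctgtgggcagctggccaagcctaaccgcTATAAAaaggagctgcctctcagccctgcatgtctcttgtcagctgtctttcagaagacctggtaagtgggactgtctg
S100A9: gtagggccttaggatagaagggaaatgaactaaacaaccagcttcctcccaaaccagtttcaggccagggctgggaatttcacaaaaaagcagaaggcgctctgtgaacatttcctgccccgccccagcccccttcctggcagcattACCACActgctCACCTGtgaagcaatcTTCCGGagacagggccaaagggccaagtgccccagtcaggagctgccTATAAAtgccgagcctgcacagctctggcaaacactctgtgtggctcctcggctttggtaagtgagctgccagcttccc
S100A3: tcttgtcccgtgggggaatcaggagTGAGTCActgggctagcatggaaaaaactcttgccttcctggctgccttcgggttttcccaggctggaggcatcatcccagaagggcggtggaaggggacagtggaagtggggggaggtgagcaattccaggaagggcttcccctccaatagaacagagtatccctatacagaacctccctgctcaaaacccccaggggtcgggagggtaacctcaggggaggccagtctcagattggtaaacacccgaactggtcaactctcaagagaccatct
S100A11: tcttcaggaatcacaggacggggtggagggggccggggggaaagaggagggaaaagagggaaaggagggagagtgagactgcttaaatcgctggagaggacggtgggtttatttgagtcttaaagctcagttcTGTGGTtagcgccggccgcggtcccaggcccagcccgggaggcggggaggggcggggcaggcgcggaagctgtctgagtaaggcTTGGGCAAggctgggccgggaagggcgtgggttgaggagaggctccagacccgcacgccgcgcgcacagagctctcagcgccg
The capitals are a ZEB and SNAI E-box (CAGGTG) and a TATA box (TATAAA) at S100A8, and a RUNX match (TGTGGT), an E-box, an ETS match (CCGGAA) and a TATA box at S100A9. At S100A3 they mark an AP-1 match (TGANTCA), and at S100A11 a RUNX and a C/EBP match (TTGCNNAA). No matches overlap in these 4 windows. Over the 68 windows of the locus, which cover 60 of its 64 protein-coding genes, the TATA letters were found in 48.5% of windows, against 9.47% of 22199 windows of protein-coding genes in all. AP-1 letters were found in 29.4% of locus windows, against 6.15% of all windows, E-box letters in 44.1%, against 19.9%, RUNX letters in 23.5%, against 11.3%, and C/EBP letters in 17.6%, against 8.69%. ETS letters were found in 2.94% of locus windows, against 21.2% of all. These are matches of letters and not measured binding. The locus shares count every window, including those of the near-identical LCE, SPRR2 and S100A7 gene copies, so the windows are not independent.

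The smallest library, E replicate 1, held 8138944 counts and the largest, EM3 replicate 1, held 16786823, and the 47 regions took between 0.0784% and 0.109% of a library's counts. E replicate 1 stood apart from its partner. At 12 regions without a count in the 10 libraries of EM1, EM2, EM3, M1 and Parental, its level was 21.1% of that in M2 (exact Poisson 95% bounds 19.4% and 23.0%, for counting error only), and E replicate 2 reached 1.78% (1.31% and 2.35%). Calls in E, its ratio to Parental summed over the locus and its correlation with Parental are therefore given with and without E replicate 1, and other levels of E include both libraries. Epithelial markers were read at the regions assigned to them: those of CDH1 summed to 66.3 CPM (counts scaled to library size by TMM) in E, 69.8 in EM1, 39.9 in EM2, 66.6 in EM3, 3.25 in M1, 2.21 in M2 and 77.5 in Parental. The region of EPCAM stood at 9.63 CPM in M1, 0.764 CPM in M2 and 49.4 CPM in Parental, the regions of KRT8 at 17.2 CPM in M1, 55.4 CPM in M2 and 50 CPM in Parental, and KRT18 had no assigned region. Of other cell types, 2 of 3 fibroblast markers (PDGFRA and DCN, not LUM) had regions, which summed to 22.6 CPM in M1, 40.3 CPM in M2 and 9.39 CPM in Parental, and to between 8.52 and 14.6 CPM in the other clones. Regions of both endothelial markers summed to between 42.1 and 74.0 CPM over the 7 groups, and those of the blood markers PTPRC and CD3E to between 47.6 and 79.2 CPM. The part of these marker levels in the results was not tested. In bulk libraries, fewer cells with an open region and less opening per cell cannot be told apart.

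The regions were gathered at the 2 ends of the locus, and the cornified envelope genes in between were nearly bare. There were 11 regions in the 0.1 Mb around S100A10 and S100A11 and 24 in the 0.3 Mb between S100A9 and CHTOP, or 110 and 80 per Mb. The 1.27 Mb from TCHHL1 to PGLYRP4 held 12 regions, or 9.45 per Mb, against 29.0 and 39.6 per Mb in the 5 Mb on either side of the locus. The widest stretch without a region was 302 kb long and held 13 genes, LCE5A, CRCT1, the LCE3 and LCE2 genes, LCE4A and KPLCE. A stretch of 258 kb held HRNR, FLG (filaggrin), FLG2 and CRNN, and one of 148 kb held IVL (involucrin), SPRR5, SPRR4, SPRR1A and SPRR3. LORICRIN lay with PGLYRP3 and PGLYRP4 in 132 kb without a region. Of 63 listed genes of the locus, 21 were the nearest gene of a region, 13 overlapped a region, 9 had their start in a region, and 35 lay over 20 kb from the nearest region. IVL, a defining gene of the complex, had no assigned region in any group. LCE, SPRR2 and S100A7 genes are near-identical copies, and the labels do not give how reads that match several of them were counted, so the lack of a region at these genes is uncertain.

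**Figure D1:**
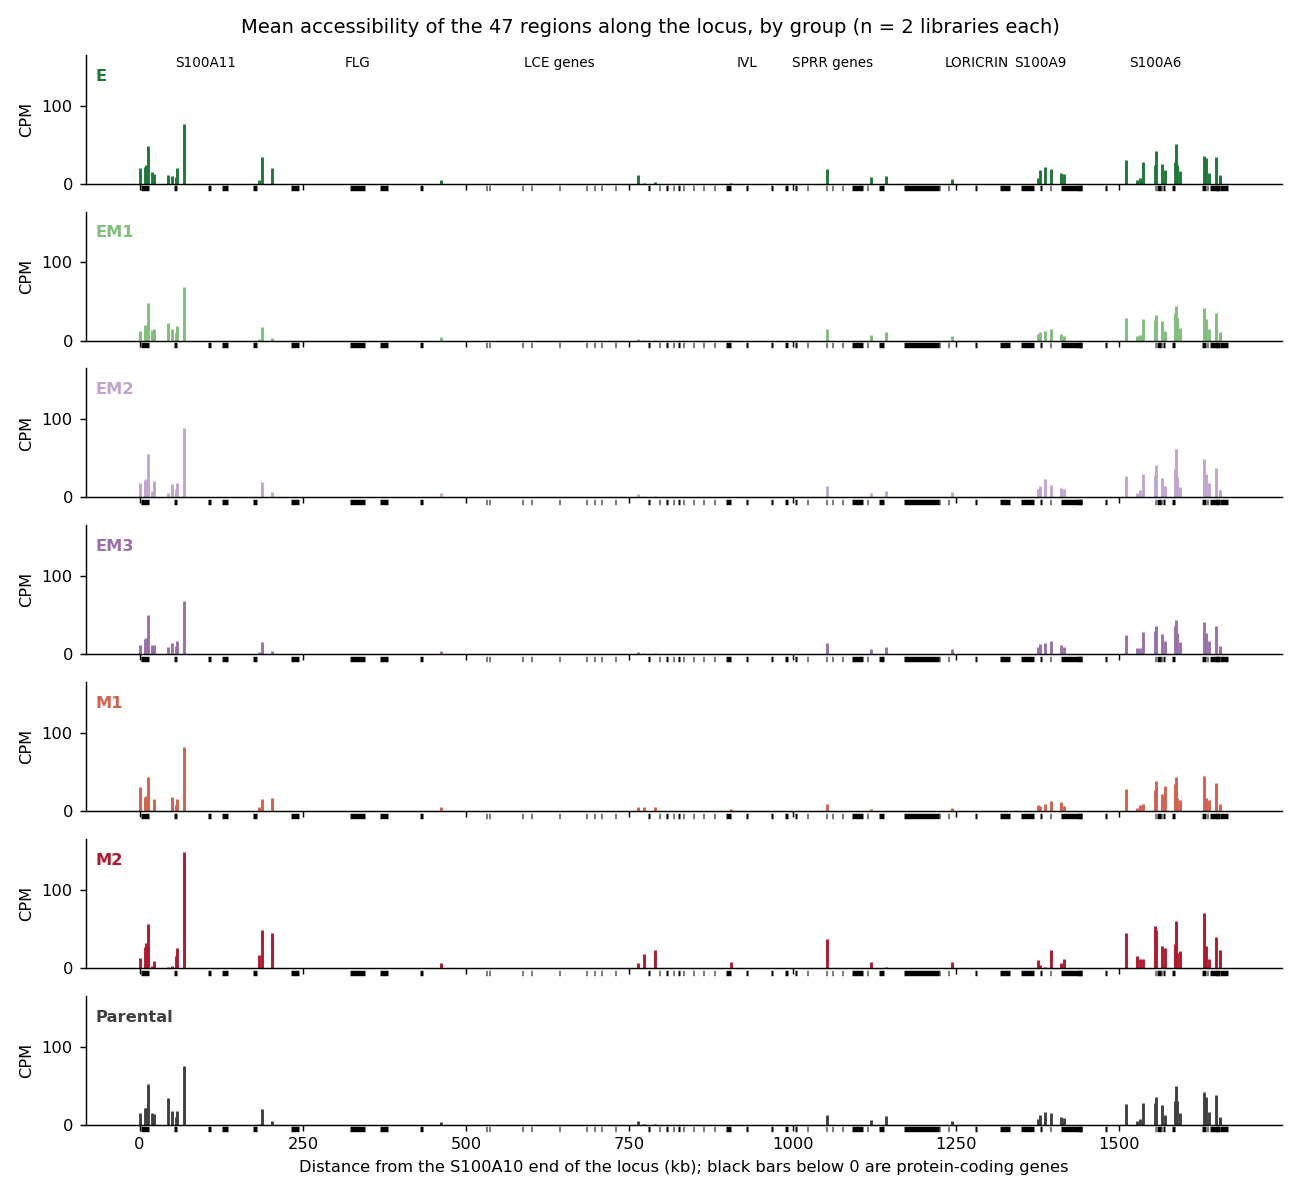
Mean accessibility (CPM, vertical axis) of each of the 47 regions by distance in kb from the S100A10 end of the locus (horizontal axis), with 1 panel for each of the 7 groups (mean of 2 libraries) and black marks under the axis for protein-coding genes. Signal stands at the 2 ends in every group, and M2 has added signal upstream of KPRP and LCE1F, where Parental averages 0.448 and 0.841 CPM.

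Per length, the most open region was region 4, inside S100A10, which encodes the partner subunit of annexin A2. It averaged 89.9 CPM per kb over the 14 libraries. Region 11, which lies 10610 bp from S100A11 on its upstream side, averaged 77.1 CPM per kb and was also the region with the highest CPM (87.1), with region 39 at S100A2 (50.8 CPM) and region 4 (50.6 CPM) next. The lowest per length was region 19 at SMCP, a gene of the sperm mitochondrial capsule, with 5.03 CPM per kb. The 12 regions of the TCHHL1 to PGLYRP4 stretch ran from 5.03 to 42.7 CPM per kb, and the 35 others from 14.9 to 89.9 CPM per kb. Widths ran from 220 to 1130 bp with a median of 455 bp, against 407 bp over all regions.

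Differences among the 7 groups were tested region by region with edgeR's quasi-likelihood F test, and a region was called at a Benjamini-Hochberg adjusted p under 0.05 over all 65771 regions tested. All 47 members passed the filter on low counts. The joint test called 29 of the 47 (61.7%), against 78.5% of all regions tested and 77.3% of the 343 regions in the flanking 5 Mb on each side. Set against Parental in turn, 17 regions were called in none of the 6 clones, 16 in 1 clone, 11 in 2 clones, 2 in 3 clones and 1 in 5 clones. M2 had the highest group mean of log2 CPM at 28 regions and the lowest at 7, and M1 had the lowest at 18. Across the 47 regions, whose points share libraries and differ in width, the group means of log2 CPM correlated with Parental at 0.986 (EM1), 0.958 (EM3), 0.938 (EM2), 0.935 (E, and 0.935 for E replicate 2 alone), 0.524 (M1) and 0.279 (M2), and M2 with M1 at 0.778. Calls fell at gene starts and away from them: of the 12 regions holding an annotated start 5 were called in the joint test, and of the 35 holding none 24 were. This split was not tested.

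Clones EM1, EM2 and EM3 differed little from Parental along the locus. In EM1 no region was called higher or lower, where 0.336% of all regions were called higher and 0.284% lower; at an unadjusted p under 0.05, edgeR gave 0 higher and 1 lower, and DESeq2 called 0. In EM2 no region was called higher, against a background of 3.02%, and 1 was called lower, against 6.11%; at an unadjusted p under 0.05 there were 3 higher and 2 lower. In EM3 no region was called higher, against 1.8%, and 1 was called lower, against 1.24%, with 1 higher and 1 lower at an unadjusted p under 0.05. DESeq2 called none higher in either clone. The region called lower in EM2 and in EM3 was the same, region 7. With a replicate block, region 5 was also called lower in EM2 (-0.86, edgeR adjusted p = 0.048). The block also gave a call of region 31 as higher in EM3 (0.96, edgeR adjusted p = 0.031). Leaving out either E library gave a call of region 5 in EM2 too (-0.85 and -0.88).

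Region 7 (chr1:152023896-152024623) lies between S100A10 and S100A11, 7883 bp beyond the 3′ side of S100A11, which encodes a calcium-binding partner of annexin A1. Its libraries read 8.86 and 13.7 CPM in E, 25.9 and 18.9 CPM in EM1, 3.47 and 7.87 CPM in EM2, 10.9 and 8.87 CPM in EM3, 0.425 and 0.264 CPM in M1, 0.458 and 0.688 CPM in M2, and 29.4 and 39.3 CPM in Parental. Every clone library was below both Parental libraries, and the M libraries were nearly empty, with 4 and 4 counts in M1 and 4 and 9 counts in M2. The fitted log2 change was -1.60 ± 0.35 (SE) in E, -2.60 ± 0.37 in EM2, -1.79 ± 0.35 in EM3, -6.66 ± 0.51 in M1 and -5.84 ± 0.48 in M2, with edgeR adjusted p of 0.013, 0.001, 0.018, 8.3e-07 and 4.4e-07 in that order. EM1 was at -0.62 ± 0.34 and did not pass (edgeR adjusted p = 0.6). It was the region with the widest span between group means, 6.07 on the log2 scale. The call in E was lost without E replicate 1 (-1.32, edgeR adjusted p = 0.093) or Parental replicate 2 (-1.35, 0.13), and the call in EM3 was lost without any of the 4 libraries compared (-1.98 to -1.60).

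**Figure D2:**
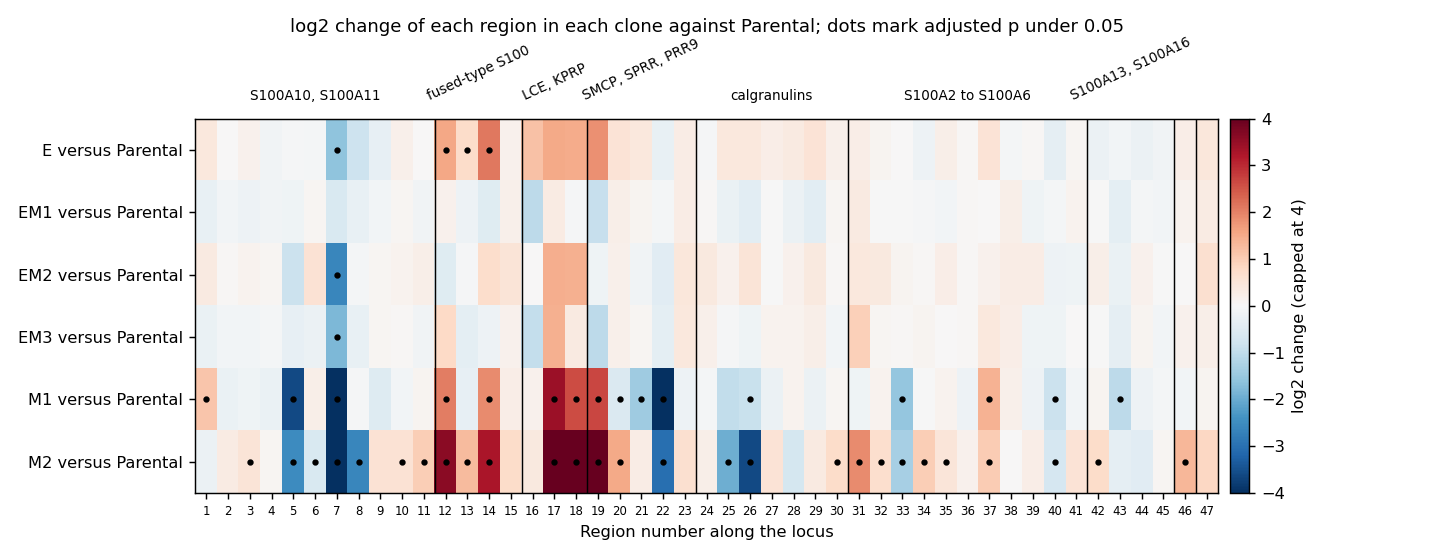
The log2 change of each region (columns, numbered along the locus and separated by gene class) in each clone against Parental (rows), with dots where the edgeR adjusted p was under 0.05 and colours capped at 4. EM1 to EM3 carry 2 dots, both at region 7, while M1 carries 16 and M2 carries 27.

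In E, 3 regions were called higher, or 6.38% of the members against a background of 5.13%, and 1 lower, or 2.13% against 6.23%. The 3 higher ones stood together upstream of RPTN, which encodes repetin, a fused-type S100 protein of the cornified envelope. Region 14 (chr1:152182865-152183394, 23637 bp from RPTN) had 21.5 and 17.9 CPM in E, 3.74 and 2.86 CPM in EM1, 8.48 and 6.47 CPM in EM2, 5.04 and 2.62 CPM in EM3, 16.1 and 17.97 CPM in M1, 35.8 and 52.3 CPM in M2, and 5.26 and 3.90 CPM in Parental. E, M1 and M2 were each apart from Parental, and M2 was the highest. The log2 change in E was 2.102 ± 0.32 (SE; edgeR adjusted p = 0.0022), and it stayed past the threshold without E replicate 1. Region 12 (chr1:152162824-152163107, 3596 bp from RPTN) had 5.46 and 2.86 CPM in E and 1.36 and 1.44 CPM in Parental, a log2 change of 1.55 ± 0.46 (edgeR adjusted p = 0.045). Region 13 (chr1:152167829-152168403, 8601 bp from RPTN) had 34.2 and 33.8 CPM in E and 21.7 and 19.0 CPM in Parental, a log2 change of 0.74 ± 0.19 (edgeR adjusted p = 0.025). Without E replicate 1 only region 14 was called in E, and regions 12 (1.02) and 13 (0.73) were not. The call of region 12 was lost in 11 settings, among them only the libraries compared (1.57, edgeR adjusted p = 0.12) and leaving out either Parental library, and that of region 13 was lost without either Parental library too. In E the flanking 5 Mb on each side had a median log2 change of 0.21, with 17 regions called higher and 0 lower. With that median removed region 14 was called (1.85, edgeR adjusted p = 0.007), and regions 12 (1.31, edgeR adjusted p = 0.077) and 13 (0.49, edgeR adjusted p = 0.16) were not.

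M1 and M2 were the clones in which the locus changed most. In M1, 7 regions were called higher (14.9% of members, against 18.9% of all regions) and 9 lower (19.1%, against 23.3%). In M2, 18 were called higher (38.3%, against 32.1%) and 9 lower (19.1%, against 34.9%). Called in both were 13 regions, of which 6 were higher in both, 6 lower in both and 1 opposite; these comparisons share the Parental libraries. A broad shift of the surrounding chromosome accompanied M2. The 47 members had a median log2 change of -0.11 in M1 and 0.47 in M2, the 343 flanking regions one of 0.083 in M1 and 0.75 in M2, and all regions one of 0.014 in M1 and -0.0062 in M2. Of the flanking regions 59.2% were called higher in M2 and 14.6% lower. The cause of this shift was not tested, and DNA copy number was not assessed. With the median of the flanking regions removed from every library, M2 had 9 regions called higher and 16 lower, 18 of them shared with the 27, and M1 had 7 higher and 8 lower.

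**Figure D3:**
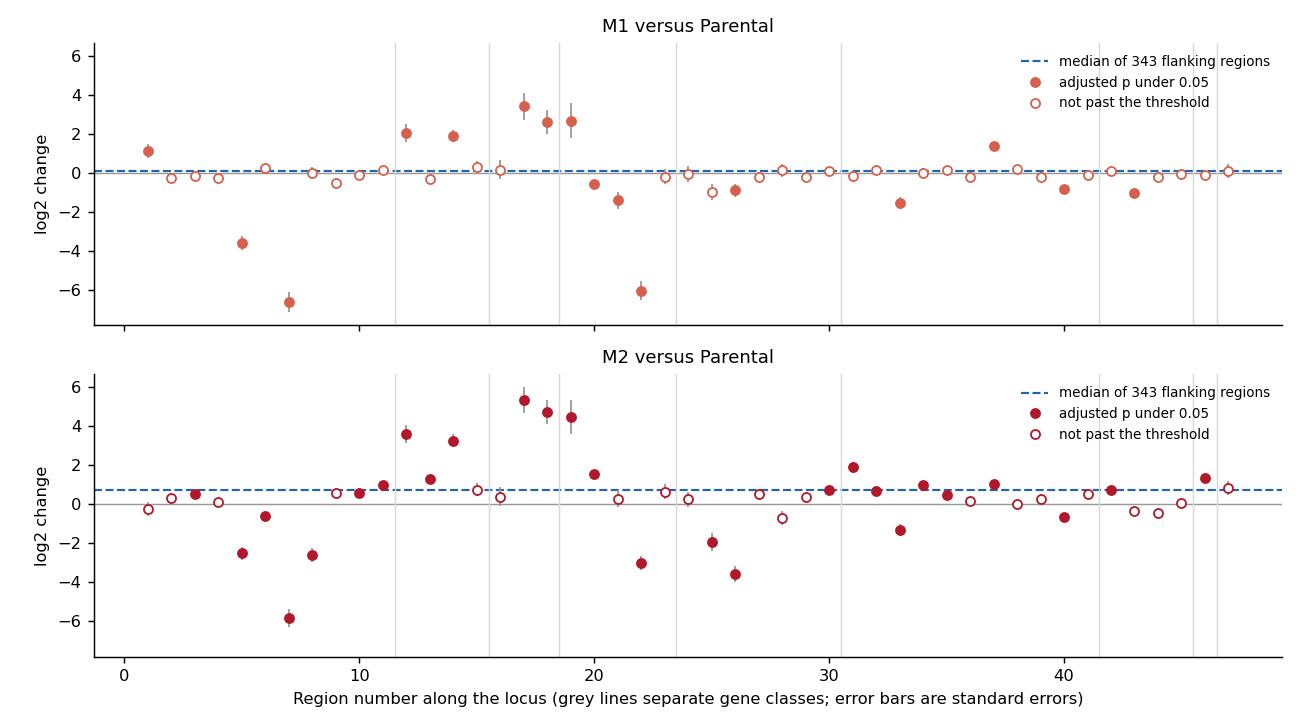
The log2 change against Parental (vertical axis, with standard errors) of the 47 regions in order along the locus (horizontal axis), for M1 in the upper panel and M2 in the lower, with filled points at an edgeR adjusted p under 0.05 and the dashed line at the median of the 343 flanking regions. In M2 most of the unfilled points lie between 0 and the dashed line at 0.75, and the rises at regions 12, 14 and 17 to 19 and the falls at 5, 7, 8, 22, 25 and 26 stand away from it.

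The fused-type S100 class, with 4 regions near RPTN and CRNN for 7 genes, summed to 62.5 ± 5.9 CPM in E, 27.2 ± 3.1 in EM1, 33.8 ± 2.5 in EM2, 26.3 ± 7.2 in EM3, 43.7 ± 6.3 in M1, 117 ± 15 in M2 and 30.4 ± 3.2 in Parental (SD, n = 2 each). In M2, 3 of the 4 regions rose, and in M1, 2 did. At region 14 the log2 change was 1.895 ± 0.32 in M1 and 3.27 ± 0.32 in M2 (SE; edgeR adjusted p = 0.00033 and 2.2e-06). Region 12 had 3.72 and 7.66 CPM in M1, 15.6 and 18.8 CPM in M2, and 1.36 and 1.44 CPM in Parental. Its log2 change was 2.03 ± 0.44 in M1 and 3.61 ± 0.45 in M2 (edgeR adjusted p = 0.0022 and 1.4e-05). At region 13 the M clones parted: it had 15.1 and 17.1 CPM in M1, below the 21.7 and 19.0 CPM of Parental but not called, and 49.0 and 49.2 CPM in M2, a log2 change of 1.27 ± 0.19 in M2 (edgeR adjusted p = 5.6e-05). The fourth, region 15, 26665 bp upstream of CRNN (cornulin), averaged 6.86 CPM in M2 and 4.09 CPM in Parental and was called in no clone. In M2 it was called higher with a replicate block (0.77, edgeR adjusted p = 0.033) and with only the libraries compared (0.75, edgeR adjusted p = 0.041). None of the 7 genes had its start in a region, and filaggrin had no region near it.

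The late cornified envelope class had 3 regions, all upstream of KPRP or LCE1F, and none at the other LCE genes. KPRP encodes the keratinocyte proline-rich protein. Region 17 (chr1:152752294-152752598, 5427 bp upstream of KPRP) had 1.33 and 1.21 CPM in E, 0.801 and 0.349 CPM in EM1, 1.93 and 0.546 CPM in EM2, 1.51 and 0.806 CPM in EM3, 3.72 and 5.75 CPM in M1, 22.1 and 14.5 CPM in M2, and 0.726 and 0.170 CPM in Parental. Only the M libraries were above 2 CPM, and the Parental level rests on 8 and 2 counts. The log2 change was 3.41 ± 0.68 in M1 and 5.34 ± 0.68 in M2 (SE; edgeR adjusted p = 0.0012 and 1.7e-05), the largest rise of the locus in each. Region 18 (chr1:152768875-152769536, 5604 bp upstream of LCE1F) had 2.43 and 2.31 CPM in E, 1.42 and 0.279 CPM in EM1, 2.54 and 1.95 CPM in EM2, 1.51 and 0.504 CPM in EM3, 6.81 and 3.63 CPM in M1, 23.4 and 21.9 CPM in M2, and 1.09 and 0.594 CPM in Parental. Again both M clones stood above the other groups, M2 well above M1. Against Parental it changed by 2.61 ± 0.61 in M1 and 4.74 ± 0.61 in M2 (edgeR adjusted p = 0.0035 and 1.8e-05). Region 16, 14250 bp upstream of KPRP, was not called in any clone. E was highest with 9.71 and 11.97 CPM, and the M2 libraries were far apart at 10.2 and 2.75 CPM, against 4.63 and 5.01 CPM in Parental. In E, region 16 was called higher with only the libraries compared (1.18, edgeR adjusted p = 0.049) and without either M2 library (1.17 and 1.2). In M2 it was called higher without M2 replicate 2 (1.07). The rises at regions 17 and 18 were also called with the flanking median removed (3.35 and 2.59 in M1, 4.66 and 4.06 in M2).

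The SMCP, SPRR and PRR9 stretch had 5 regions, of which 1 rose and 3 fell in M1, and 2 rose and 1 fell in M2. Its summed level was 44.2 ± 0.91 CPM in E, 39.6 ± 0.84 in EM1, 36.5 ± 0.54 in EM2, 37.4 ± 0.51 in EM3, 17.6 ± 0.0073 in M1, 61.3 ± 4.9 in M2 and 36.4 ± 4.8 in Parental (SD, n = 2 each). M1 was lowest and M2 highest, with no overlap with Parental on either side. Region 19 (chr1:152884961-152885273, at the 3′ end of SMCP) was nearly closed outside the M clones. It had 2.06 and 0.220 CPM in E, 2.87 and 1.26 CPM in M1, 6.53 and 7.41 CPM in M2, and 0.272 and 0.339 CPM (3 and 4 counts) in Parental, and at most 0.312 CPM in the EM libraries. Of the E libraries, only replicate 1 was raised. Against Parental the region changed by 2.67 ± 0.90 in M1 and 4.46 ± 0.87 in M2 (SE; edgeR adjusted p = 0.03 and 0.00052); the M1 call was lost without M1 replicate 1 (2.03, edgeR adjusted p = 0.17), without either Parental library (2.53 and 2.84, edgeR adjusted p = 0.14 and 0.12) and without either M2 library (2.68 and 2.69, edgeR adjusted p = 0.054 and 0.06).

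Region 20 (chr1:153032867-153033411) overlaps the 3′ end of SPRR1B, which encodes cornifin, a cross-linked precursor of the envelope. It had 18.6 and 18.6 CPM in E, 14.9 and 15.0 CPM in EM1, 13.1 and 16.4 CPM in EM2, 14.6 and 14.4 CPM in EM3, 8.93 and 8.26 CPM in M1, 33.0 and 40.3 CPM in M2, and 12.97 and 12.5 CPM in Parental. The M1 libraries were the lowest of the 14 and the M2 libraries the highest. On the log2 scale it changed by -0.57 ± 0.20 in M1 (edgeR adjusted p = 0.032) and 1.53 ± 0.19 in M2 (edgeR adjusted p = 1.4e-05), the single region called in opposite directions. The M1 call was lost without either M1 library or either Parental library (-0.59 to -0.52), and the M2 rise kept its call in every setting tried. Region 21, 5739 bp from SPRR2E, had 1.595 and 3.24 CPM in M1, 6.53 and 9.78 CPM in M2, and 7.89 and 5.52 CPM in Parental, a log2 change of -1.43 ± 0.46 in M1 (edgeR adjusted p = 0.023) that was lost without M1 replicate 1 or Parental replicate 1.

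Region 22 (chr1:153122910-153123400, 3442 bp upstream of SPRR2F, a small proline-rich gene) was open in every group but M1 and M2. It had 11.3 and 7.36 CPM in E, 11.9 and 10.04 CPM in EM1, 9.94 and 6.94 CPM in EM2, 8.51 and 9.17 CPM in EM3, 0.106 and 0.198 CPM in M1 (1 and 3 counts), 1.83 and 1.07 CPM in M2, and 11.97 and 11.03 CPM in Parental. The M1 and M2 libraries did not overlap those of any other group. The fitted log2 change was -6.06 ± 0.48 in M1 and -3.02 ± 0.36 in M2 (SE; edgeR adjusted p = 9.1e-07 and 9.6e-06). Region 23, 3809 bp downstream of PRR9, was called in no clone and had group means between 4.42 and 8.11 CPM. With a replicate block it was called higher in M2 (0.67, edgeR adjusted p = 0.038).

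**Figure D4:**
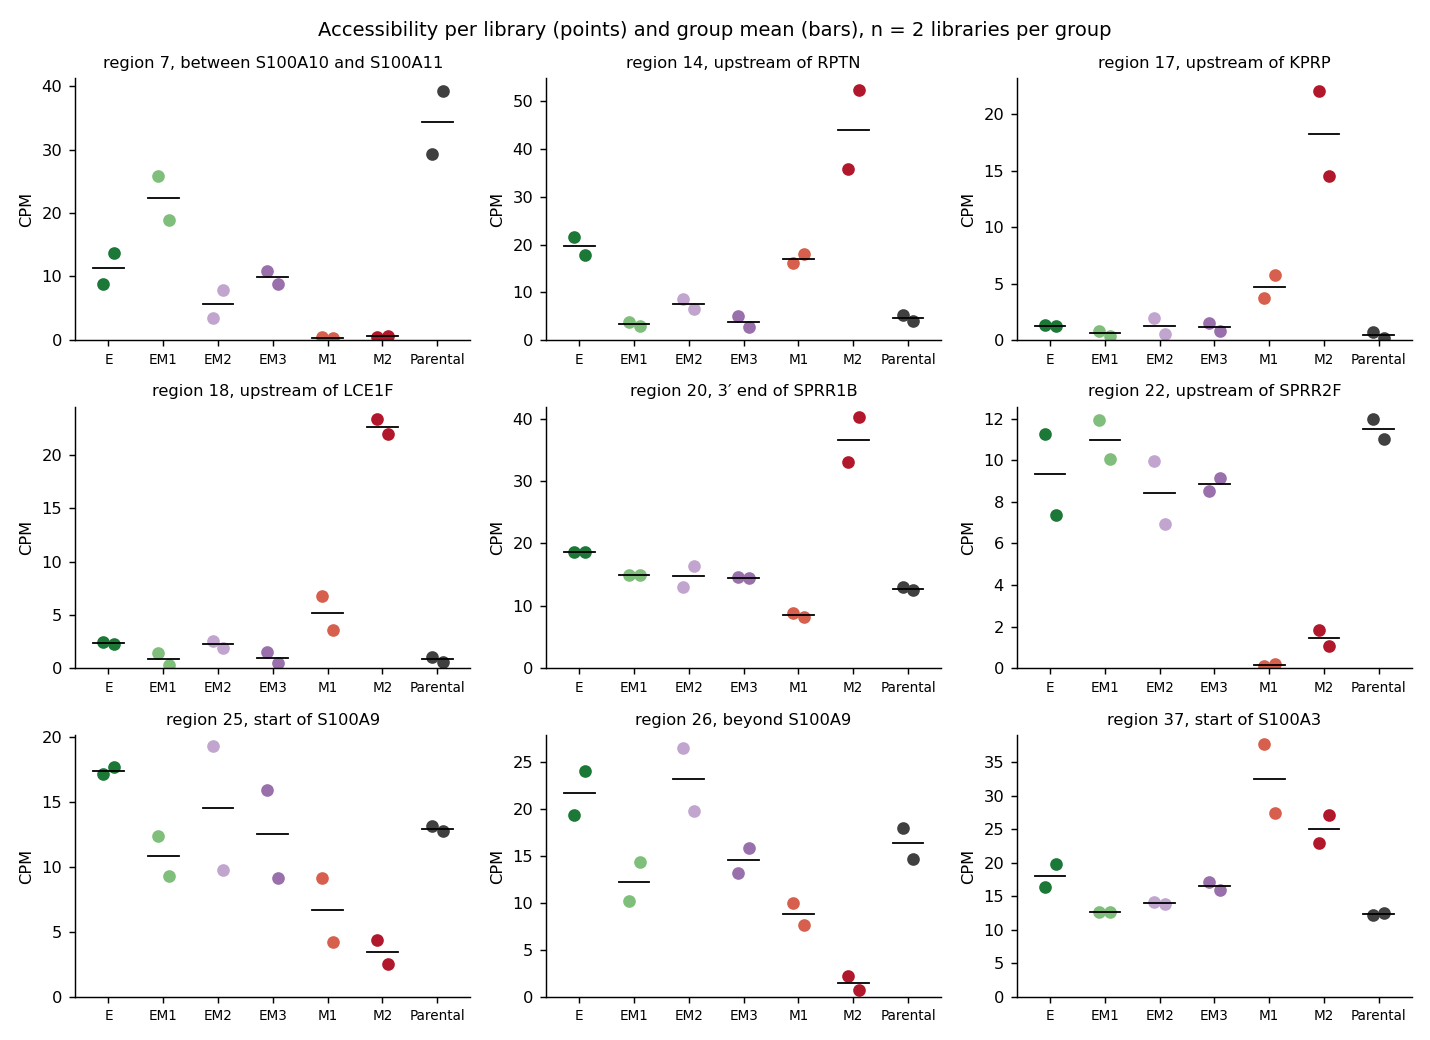
Accessibility (CPM, vertical axes starting at 0) of 9 regions in every library (points) and as group means (bars), with the 6 clones and Parental along the horizontal axes and 2 libraries in each group. Region 7 is near 0 in M1 and M2 and below Parental in every clone, regions 14, 17 and 18 are highest in M2, region 20 is lowest in M1 and highest in M2, and regions 25 and 26 at S100A9 are lowest in M2.

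The calgranulin and psoriasin class held 7 regions around S100A9, S100A12, S100A8 and S100A7, and its summed level was 122 ± 10 CPM in E, 90.1 ± 8.6 in EM1, 114 ± 10 in EM2, 99.7 ± 9.2 in EM3, 82.8 ± 2.0 in M1, 98.8 ± 1.8 in M2 and 98.3 ± 7.7 in Parental (SD, n = 2 each). Within it, S100A9 lost accessibility in M2 and S100A8 was not called, except in M2 under alternatives given below. Region 25 (chr1:153357569-153357946), over the S100A9 start printed above, had 17.1 and 17.7 CPM in E, 12.4 and 9.27 CPM in EM1, 19.3 and 9.74 CPM in EM2, 15.9 and 9.17 CPM in EM3, 9.14 and 4.23 CPM in M1, 4.35 and 2.52 CPM in M2, and 13.2 and 12.7 CPM in Parental. M2 was below Parental without overlap, and the M1 libraries spread widely below it. The log2 change was -1.94 ± 0.45 in M2 (SE; edgeR adjusted p = 0.0018), called in every setting tried. M1 was at -0.98 and did not pass, though it did without M1 replicate 1 (-1.57, edgeR adjusted p = 0.026) and with only the libraries compared (-0.97, edgeR adjusted p = 0.044).

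Region 26 (chr1:153365235-153365732), 4212 bp beyond the 3′ end of S100A9 toward S100A12, had 19.3 and 24.1 CPM in E, 10.2 and 14.4 CPM in EM1, 26.5 and 19.8 CPM in EM2, 13.2 and 15.8 CPM in EM3, 9.995 and 7.60 CPM in M1, 2.18 and 0.688 CPM in M2, and 17.96 and 14.7 CPM in Parental. M2 was the lowest group and M1 the next. The log2 change was -0.90 ± 0.33 in M1 (edgeR adjusted p = 0.045) and -3.60 ± 0.41 in M2 (edgeR adjusted p = 7.3e-06); the M1 call was lost in 9 settings, the M2 call in none. Region 24, 2075 bp upstream of S100A9, was called in no clone and had group means between 7.64 and 10.6 CPM.

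The start of S100A8 (region 28, chr1:153390987-153391280) had 12.01 and 14.2 CPM in E, 7.83 and 9.55 CPM in EM1, 11.7 and 11.4 CPM in EM2, 9.50 and 12.9 CPM in EM3, 12.1 and 10.2 CPM in M1, 9.16 and 3.67 CPM in M2, and 10.5 and 9.84 CPM in Parental. Only the M2 libraries were both below Parental among the M clones, and they differed from each other. The log2 change in M2 did not pass, but it did with the flanking median removed (-1.36, edgeR adjusted p = 0.0064) and without M2 replicate 1 (-1.47, edgeR adjusted p = 0.002). Region 29, inside the annotated span of S100A8 upstream of the printed start, was called in no clone, with group means between 6.26 and 12.2 CPM. Without M2 replicate 2 it was called higher in M2 (0.65). Region 27 at the start of S100A12, another secreted calgranulin, was also called in no clone, with group means between 13.2 and 22.7 CPM. In M2, region 27 was called higher under some alternatives, among them a replicate block (0.52, edgeR adjusted p = 0.033) and only the libraries compared (0.55, edgeR adjusted p = 0.048). Region 30, 29528 bp upstream of S100A7 (psoriasin), had 38.4 and 50.4 CPM in M2 and 28.8 and 25.03 CPM in Parental, a log2 change of 0.73 ± 0.24 (edgeR adjusted p = 0.017). That call was lost with the flanking median removed (0.031) and without M2 replicate 2 (0.51) or Parental replicate 2 (0.60).

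The S100A10 and S100A11 class, with 11 regions, summed to 267 ± 29 CPM in E, 260 ± 29 in EM1, 290 ± 8.4 in EM2, 248 ± 17 in EM3, 253 ± 3.8 in M1, 332 ± 7.4 in M2 and 295 ± 19.5 in Parental (SD, n = 2 each). In M1, 1 of its regions rose and 2 fell, and in M2, 3 rose and 4 fell. The regions inside the genes moved little: region 4 in S100A10 averaged 43.9 ± 4.7 CPM in M1, 56.2 ± 1.4 CPM in M2 and 52.7 ± 5.5 CPM in Parental and was called in no clone. With the flanking median removed, however, region 4 was called lower in M2 (-0.59, edgeR adjusted p = 0.0097). Region 10, over the S100A11 start, averaged 15.8 ± 2.3 CPM in M1, 25.4 ± 0.34 CPM in M2 and 17.1 ± 0.49 CPM in Parental. Its rise in M2, 0.58 ± 0.20 (edgeR adjusted p = 0.021), ended at -0.11 with the flanking median removed. The call was also lost with library totals (0.47) and without M2 replicate 2 or either Parental library. The regions outside the genes moved most. Region 5 (chr1:151998964-151999279), 5105 bp upstream of S100A10, had 10.3 and 18.8 CPM in E, 12.02 and 14.3 CPM in EM1, 7.17 and 9.35 CPM in EM2, 11.99 and 11.8 CPM in EM3, 1.595 and 0.925 CPM in M1, 2.86 and 2.37 CPM in M2, and 15.8 and 14.1 CPM in Parental. Only the M libraries were below 3 CPM. The log2 change was -3.61 ± 0.37 in M1 and -2.52 ± 0.34 in M2 (edgeR adjusted p = 6.3e-06 and 2.7e-05).

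Region 8 (chr1:152029130-152029584), 2922 bp beyond the 3′ side of S100A11, was called in M2 and in no other clone. Without E replicate 2 it was also called lower in E (-1.25). It had 16.6 and 18.6 CPM in M1, 2.98 and 2.98 CPM in M2, and 18.4 and 17.8 CPM in Parental, a log2 change of -2.60 ± 0.35 in M2 (edgeR adjusted p = 3e-05). Region 6, 7596 bp upstream of S100A10, had a log2 change of -0.60 ± 0.25 in M2 (edgeR adjusted p = 0.046), a call lost in 9 settings, among them DESeq2's own test, only the libraries compared and leaving out any of the 4 libraries compared (-0.72 to -0.49). Region 1, 2014 bp beyond the 3′ side of S100A10, had 32.4 and 30.3 CPM in M1, 17.4 and 7.41 CPM in M2, and 14.6 and 14.3 CPM in Parental, and was called higher in M1 (1.11 ± 0.35, edgeR adjusted p = 0.019), a call lost without any of the 4 libraries compared. Region 11, the highest of the locus, had 81.3 and 83.1 CPM in M1, 157 and 140 CPM in M2, and 76.5 and 75.2 CPM in Parental. Its log2 change in M2, 0.97 ± 0.14 (edgeR adjusted p = 3.8e-05), was 0.29 and not called with the flanking median removed. Region 3, inside S100A10, was likewise called higher in M2 (0.53) and was at -0.15 with the flanking median removed. The region 3 call was also lost with library totals (0.42) and without M2 replicate 2 (0.39) or Parental replicate 1 (0.30). Regions 2 and 9, inside S100A10 and S100A11, were called in no clone against Parental. In M2, region 9 was called higher under some alternatives, among them DESeq2's own test (0.60, adjusted p = 0.047) and a replicate block (0.58, edgeR adjusted p = 0.034). Region 2 was called higher in M2 without M2 replicate 1 (0.60).

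The S100A2 to S100A6 class, with 11 regions, summed to 269 ± 9.8 CPM in E, 262 ± 26 in EM1, 292 ± 40 in EM2, 275 ± 6.4 in EM3, 250 ± 3.7 in M1, 326 ± 5.6 in M2 and 264 ± 6.1 in Parental (SD, n = 2 each). In M1, 1 region rose and 2 fell, and in M2, 5 rose and 2 fell. The gain shared by both clones was at the start of S100A3, a gene of the hair cuticle. Region 37 (chr1:153548938-153549633), over the printed S100A3 window with its AP-1 letters, had 16.4 and 19.8 CPM in E, 12.6 and 12.6 CPM in EM1, 14.1 and 13.9 CPM in EM2, 17.2 and 15.9 CPM in EM3, 37.8 and 27.4 CPM in M1, 22.9 and 27.2 CPM in M2, and 12.2 and 12.6 CPM in Parental. Both M clones stood above every other group. The log2 change was 1.39 ± 0.20 in M1 and 1.02 ± 0.20 in M2 (SE; edgeR adjusted p = 0.0001 and 0.0006), and with the flanking median removed it was 1.37 and called in M1 but 0.33 and not called in M2.

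S100A6 encodes calcyclin, S100A4 a binder of nonmuscle myosin, and S100A2 a nuclear S100 protein of basal epithelium. Region 35 at the S100A6 start averaged 38.6 ± 3.6 CPM in M1, 48.9 ± 4.6 CPM in M2 and 35.2 ± 1.0 CPM in Parental, and its call in M2 (0.47 ± 0.18, edgeR adjusted p = 0.031) turned to -0.21 with the flanking median removed. That call was also lost with library totals (0.365) and without M2 replicate 1 or either Parental library. Region 36, inside S100A4, averaged 21.3 ± 4.4 CPM in M1, 27.9 ± 0.28 CPM in M2 and 24.8 ± 0.11 CPM in Parental and was called in no clone, though it was called lower in M2 with the flanking median removed (-0.51, edgeR adjusted p = 0.011). Region 39, 302 bp upstream of S100A2, averaged 43.2 ± 0.075 CPM in M1, 60.5 ± 3.5 CPM in M2 and 49.8 ± 1.8 CPM in Parental and was called in no clone. Region 38 at the S100A2 start was called in no clone either, but was called lower in M2 with the flanking median removed (-0.67, edgeR adjusted p = 0.018). Region 41, upstream of S100A2, was also called in no clone against Parental. Under some alternatives it was called higher in M2, among them DESeq2's own test (0.55, adjusted p = 0.047) and a replicate block (0.53, edgeR adjusted p = 0.039).

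The remaining regions of the class lay outside the naming rule and were chosen after their values were seen. Region 33 (chr1:153515535-153516378, 18221 bp from S100A6) had 31.3 and 24.5 CPM in E, 31.2 and 23.1 CPM in EM1, 34.4 and 24.6 CPM in EM2, 27.97 and 28.3 CPM in EM3, 11.5 and 7.46 CPM in M1, 14.9 and 7.49 CPM in M2, and 27.7 and 27.3 CPM in Parental. The M clones were both low, and the log2 change was -1.55 ± 0.31 in M1 and -1.32 ± 0.31 in M2 (SE; edgeR adjusted p = 0.0012 and 0.0021). Region 40, 2694 bp upstream of S100A2, was lower in M1 (-0.85 ± 0.21) and M2 (-0.67 ± 0.21; edgeR adjusted p = 0.0057 and 0.013). Its Parental libraries read 25.5 and 35.3 CPM, and without Parental replicate 2 neither call held (M1 -0.58, M2 -0.44; edgeR adjusted p = 0.081 and 0.13), nor did the M2 call without M2 replicate 1 (-0.47, edgeR adjusted p = 0.11). Region 31, 27291 bp from S100A6, had 2.98 and 4.43 CPM in M1, 13.3 and 18.4 CPM in M2, and 3.72 and 4.75 CPM in Parental, and rose in M2 by 1.904 ± 0.29 (edgeR adjusted p = 6.9e-05). Regions 32 (0.68) and 34 (0.98) were called higher in M2 and were not called with the flanking median removed (0.0070 and 0.29). The region 32 call was also lost with library totals (0.575) and without M2 replicate 1 or either Parental library.

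At the far end, 5 regions lay at S100A16 and S100A13, and region 46 at the start of CHTOP, a neighbour that encodes a chromatin-bound partner of an arginine methyltransferase. Region 42, at an S100A16 start, had 45.1 and 44.9 CPM in M1, 72.7 and 68.5 CPM in M2, and 41.6 and 42.5 CPM in Parental, a log2 change of 0.75 ± 0.19 in M2 (edgeR adjusted p = 0.0037) that was 0.066 with the flanking median removed. Region 43, at another S100A16 start and chosen after its values were seen, went the other way: it had 15.0 and 19.0 CPM in M1, 23.4 and 31.6 CPM in M2, and 35.0 and 36.2 CPM in Parental, a log2 change of -1.06 ± 0.19 in M1 (edgeR adjusted p = 0.00046). Both M clones were below Parental there, M1 further, and M2 was not called (-0.37, edgeR adjusted p = 0.091). With the flanking median removed M2 was called lower (-1.06, edgeR adjusted p = 5.5e-05), beside -1.10 in M1. The difference between M2 and M1 was then 0.044 and not called (edgeR adjusted p = 0.84). Region 45, at an S100A13 start, varied least of the locus, with a span of 0.21 on the log2 scale between group means. It averaged 35.9 ± 4.1 CPM in M1, 39.6 ± 5.9 CPM in M2 and 37.9 ± 6.1 CPM in Parental. It was called in no clone, but was called lower in M2 with the flanking median removed (-0.61, edgeR adjusted p = 0.0042). Regions 44 and 47 were called in no clone. In M2, region 44 was called lower with the flanking median removed (-1.13, edgeR adjusted p = 0.0038) and with a replicate block (-0.46, edgeR adjusted p = 0.037), and region 47 was called higher under 8 alternatives, among them DESeq2's own test (adjusted p = 0.046) and a replicate block (0.85, edgeR adjusted p = 0.018). Region 46, also chosen after its values were seen, had 7.87 and 9.45 CPM in M1, 23.6 and 23.4 CPM in M2, and 9.25 and 9.50 CPM in Parental, a log2 change of 1.32 ± 0.21 in M2 (edgeR adjusted p = 9.5e-05), or 0.64 and still called with the flanking median removed.

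M2 was then set against M1 directly. Of the 47 regions 24 were called higher in M2 (51.1%, against 27.2% of all regions and 54.5% of the flanking regions) and 4 lower (8.51%, against 29.0% of all and 9.62% of the flanking regions). The median log2 difference of the members was 0.65, close to the 0.70 of the flanking regions. With the flanking median removed 7 regions were higher and 10 lower, 11 of them shared with the 28, and with scaling by library totals 17 were higher and 6 lower. Region 22 had the largest difference, 3.04 ± 0.58 (SE; edgeR adjusted p = 0.00062), being closed in M1 and faintly open in M2. Region 18 followed at 2.13 ± 0.50 (edgeR adjusted p = 0.0029) and region 20 at SPRR1B at 2.09 ± 0.20 (edgeR adjusted p = 2.4e-06). The 4 regions lower in M2 were 26 beyond S100A9 (-2.70 ± 0.42, edgeR adjusted p = 0.00014), 8 near S100A11 (-2.56 ± 0.35, edgeR adjusted p = 5.8e-05), 1 at the S100A10 end (-1.36 ± 0.35, edgeR adjusted p = 0.0054) and 6 upstream of S100A10 (-0.82 ± 0.25, edgeR adjusted p = 0.012). The 11 differences called with and without the flanking median removed were at regions 1, 6, 8, 12, 13, 18, 20, 22, 26, 31 and 46.

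Summed over the whole locus, accessibility relative to Parental was 1.04 in E (1.06 for E replicate 2 alone), 0.935 in EM1, 1.06 in EM2, 0.947 in EM3, 0.899 in M1 and 1.33 in M2, as ratios of mean CPM. The late cornified envelope class had the largest ratio of M2 to Parental, 7.77, followed by the fused-type S100 class at 3.85. In the same classes E reached 2.37 and 2.05 (2.54 and 1.92 for E replicate 2 alone) and M1 reached 2.51 and 1.44, and M1 stood at 0.485 in the SMCP, SPRR and PRR9 class. None of the 3 late cornified envelope regions was called in E, and the class summed to only 6.10 CPM in Parental. Most of its level in E was at region 16, with 10.84 CPM in E and 4.815 CPM in Parental. The calgranulin class was at 1.01 in M2 and 0.842 in M1. These ratios keep the shift of the surrounding chromosome in M2. There the median log2 change was 0.75 in the flanking regions and 0.47 in the members.

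Genes of the same programme elsewhere in the genome were taken from lists. Of 24 cornification genes outside the locus (envelope cross-linkers, proteases, lipid enzymes and desmosomal proteins), 18 had 53 regions in all. In M1, 5 of these regions were called higher and 29 lower, with a median log2 change of -0.88, and in M2, 9 were higher and 30 lower, with a median of -1.10, against medians of 0.014 and -0.0062 over all regions. Of all regions 18.9% were called higher and 23.3% lower in M1, and 32.1% higher and 34.9% lower in M2. The region 9583 bp from CALML5, which encodes a calmodulin-like skin protein, averaged 2.28 ± 0.98 CPM in M1, 0.802 ± 0.81 CPM in M2 and 106 ± 2.3 CPM in Parental. The one inside EVPL, which encodes envoplakin, averaged 0.458 ± 0.00023 CPM in M2, against 14.9 ± 1.2 CPM in M1 and 25.8 ± 0.35 CPM in Parental. Of 77 regions at 14 regulators of epidermal differentiation, 7 were higher and 30 lower in M1, and 20 higher and 35 lower in M2, beside the same shares of all regions, with median log2 changes of -0.34 and -0.54. A region inside TP63, which encodes the basal-layer factor p63, averaged 0.279 ± 0.21 CPM in M1 and 28.6 ± 6.3 CPM in Parental, and a region inside OVOL1, a zinc-finger regulator of epithelial differentiation, 0.248 ± 0.14 CPM in M2 and 30.9 ± 3.4 CPM in Parental. Of 26 regions at S100 receptors and annexin partners (3 of 4 listed genes had regions), 1 was higher and 9 lower in M1, and 8 higher and 9 lower in M2, shares near those of all regions in M2; the medians were -0.31 and -0.16.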

How the data were processed

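The deposited table holds raw counts, made by the authors, in 65774 consensus regions and 14 libraries, per the file headers; no column was left unmatched (0). Per the submitters' processing notes the build was hg38 and the tools included Bowtie2 2.2.6, MACS2 2.1.1, cutadapt 1.9.1, featureCounts, Picard and deepTools. Not given in the sources used here are their roles, any shift of read ends for the transposase, and the handling of reads with several matches. Peak lists were not used.

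Library totals ranged from 8138944 to 16786823 counts. Counts were scaled by TMM, filtered with filterByExpr (minimum count 10, which left 65771 regions) and tested with edgeR 4.0.16 (R 4.3.3) as quasi-likelihood F tests on 7 group means over all 14 libraries, with robust fitting. The common biological coefficient of variation was 0.208. P-values were adjusted by Benjamini-Hochberg over all regions tested, and the threshold for a call was an adjusted p of 0.05. CPM are TMM-scaled, log2 CPM use a prior count of 2, and a standard error is the log2 change divided by the square root of F. The tests were checked on simulated data.

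Regions, numbered along the chromosome, were given the protein-coding gene nearest to them in RefSeq's GRCh38.p14 table, which gives gene spans without exons, and gene starts come from its promoter table. No genome sequence of the regions was used here. Named are all regions of the markers S100A8, S100A9, IVL and SPRR1B, for each other listed gene the most open region at it or the nearest, the 5 widest spans, the 3 highest means, and in each comparison the 3 largest and 3 smallest called changes; other regions were chosen after their values were seen. Of lists elsewhere up to 2 called regions per comparison could be named. The members, lists and alternatives were chosen with earlier results of these data known.

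Alternatives were DESeq2 size factors, library totals, no filter, DESeq2 1.42.0 tests, a replicate block, only the libraries compared, a log2 limit of 1, only regions within 1 kb of listed genes, leaving out each library, and removal of a local median (of the regions 5 Mb on each side of the locus, and of 10 Mb windows with at least 20 regions elsewhere). A group left with 1 library is assumed to vary like the others.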

Additional observations from a re-analysis of the deposited data

Results flagged for a closer look

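At 9 regions the change of M2 against Parental differed from that of M1 by the direct test of M2 against M1 (edgeR quasi-likelihood, adjusted p under 0.05), among regions called in both clones. The M2 change minus the M1 change was 1.09 at region 5 upstream of S100A10, 1.57 at region 12 and 1.37 at region 14 upstream of RPTN, 1.93 at region 17 upstream of KPRP, 2.13 at region 18 upstream of LCE1F, 1.79 at region 19 at SMCP, 2.09 at region 20 at SPRR1B, 3.04 at region 22 upstream of SPRR2F, and -2.70 at region 26 beyond S100A9, all on the log2 scale. With the flanking median removed the differences at regions 12 (0.95), 18 (1.47), 20 (1.44), 22 (2.43) and 26 (-3.35) were called, and those at regions 5 (0.45), 14 (0.72), 17 (1.31) and 19 (1.12) were not.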

How the results depend on the processing

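Of 76 called changes of single regions with a rounded edgeR adjusted p under 0.05, 37 were called under every alternative and 39 were lost under at least 1. Region 29 in M2 versus M1, called but at 0.05 after rounding, was lost under some alternatives too. Under some alternative 33 other changes were called with the same sign. Regions 4, 36, 38 and 45 in M2 versus Parental and 45 in M2 versus M1 are not among these. They were called with the local median removed, after a turn of sign. Library totals moved the median log2 change of all regions by -0.11 (M2 versus Parental) and -0.15 (M2 versus M1), and other scalings by under 0.1. With the local median removed, 2 regions were called in E versus Parental (1 higher, 1 lower) and 17 in M2 versus M1. Among changes called with or without it, the sign turned in M2 versus Parental at regions 3 (-0.15), 4 (-0.59), 10 (-0.11), 35 (-0.21), 36 (-0.51), 38 (-0.67) and 45 (-0.61). In M2 versus M1 such turns were at regions 2 (-0.052), 29 (-0.028), 41 (-0.0097) and 45 (-0.50). Changes called in neither setting also turned sign, among them regions 2 (0.33 to -0.35) and 27 (0.55 to -0.15) in M2 versus Parental. Region 36 (0.39 to -0.25) was among them in M2 versus M1. The cause was not tested. A log2 limit of 1 left 17 regions in M2 versus Parental and 16 in M2 versus M1, by its construction. Leaving out each library gave 1 to 6 regions in E, 1 to 2 in EM2, 0 to 1 in EM3, 11 to 16 in M1 and 22 to 29 in M2 versus Parental, 16 to 27 in M2 versus M1 (16 without M1 replicate 1, 18 without M2 replicate 2), and 23 to 30 in the joint test; EM1 stayed at 0. E had 1 region without E replicate 1 or Parental replicate 2 and 2 without Parental replicate 1. EM3 had 0 without either of its own libraries or either Parental library, and EM2 had 2 without either E library.

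Same-numbered libraries deviated together with correlations between 0.023 and 0.59 (median 0.27) over 21 pairs of groups, 19 of them over 0.1; since not every pair was, the numbers were not taken to pair the libraries. With a replicate block 6 regions were called in E, 2 in EM2, 2 in EM3, 17 in M1 and 35 in M2 versus Parental, 37 in M2 versus M1 and 34 in the joint test.

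The summed level relative to Parental became 1.01 (E), 0.918 (EM3) and 1.35 (M2) with DESeq2 size factors, 0.981 (EM3), 0.924 (M1) and 1.23 (M2) with library totals, and 1 (EM3) and 0.936 (M1) over only the regions at genes. Regions with under 10 counts in a group, such as 7 and 22 in M1 and 19 in Parental, give imprecise fold changes.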
